A study of Mus musculus with 2 samples.

Results

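The 52 genes described here encode the enzymes that build and cap the sugar chains of secreted and cell surface glycoproteins and glycolipids, from the supply of activated sugars to the terminal sialic acid and fucose. They were chosen by name, in 9 enzyme classes, out of 18194 genes that had a probe set with a single gene symbol, and all 52 were represented on the array by 125 such probe sets. The study compared small intestine of IL-9 transgenic mice with that of wild-type mice. All animals were BALB/c mice aged 6 to 8 weeks with no treatment, and each of the 2 arrays carried total RNA from 1 pool of 3 mice. The labels do not give the promoter that drives the transgene or the cells that make IL-9, a cytokine that promotes mast cell growth. With 1 array per group there is no replicate, every difference is between these pools, and no p-value is given.

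Mucin-type glycosylation starts in the Golgi, where enzymes of the Galnt family attach N-acetylgalactosamine to serine or threonine. Core enzymes then extend this first sugar, further transferases lengthen the chain, and sialyltransferases and fucosyltransferases cap it. Goblet cells make mucins that carry very many such chains, and the brush border of the epithelium carries a dense coat of membrane mucins and glycolipids. The donors of these reactions are activated sugars, such as CMP-sialic acid and GDP-fucose, which the cell makes from intermediates of sugar metabolism.

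St3gal4 and Pmm1 were the 2 members that differed by 2-fold or more, and both were higher in the transgenic pool. Of the members past the expression filter (an intensity of at least 78.5, the median of all values, in at least 1 pool), these were 2 of 43, against 0.607% of the 11862 genes past the filter. Both were also past 3-fold, against 0.261% of the genes past the filter. No member was lower by 2-fold, against 0.202% of those genes. The members were chosen with earlier results of these data known, so these shares do not test the list. St3gal4 passed the filter in the transgenic pool alone. Values are intensities on a linear scale, and differences are taken on the log2(intensity + 1) scale, transgenic minus wild type. The other 41 members past the filter lay between -0.38 and 0.58, so these genes stood far from all other members.

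The promoters of these 2 genes are shown as the regulatory sequence next to the members with the 2 large differences. Each line gives the 250 bases before the RefSeq start in build GRCm38.p6, on the minus strand, with GC boxes (GGGCGG or its reverse complement) in capitals. The St3gal4 sequence lies at chr9:35116865-35117114 and the Pmm1 sequence at chr15:81960931-81961180.
St3gal4: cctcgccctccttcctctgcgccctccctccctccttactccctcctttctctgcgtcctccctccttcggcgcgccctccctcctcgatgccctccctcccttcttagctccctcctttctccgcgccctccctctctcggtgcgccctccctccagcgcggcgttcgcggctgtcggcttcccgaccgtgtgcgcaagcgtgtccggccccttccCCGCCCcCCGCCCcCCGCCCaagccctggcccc
Pmm1: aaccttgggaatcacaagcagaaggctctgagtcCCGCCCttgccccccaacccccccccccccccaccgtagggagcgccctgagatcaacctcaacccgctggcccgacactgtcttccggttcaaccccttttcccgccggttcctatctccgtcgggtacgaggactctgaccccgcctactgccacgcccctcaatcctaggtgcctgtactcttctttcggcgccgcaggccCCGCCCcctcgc

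The 2 promoters were rich in G and C, with 72.8% for St3gal4 and 66% for Pmm1. The first held 3 GC boxes and the second 2, and GC boxes occurred in 32.7% of all 32851 promoter windows of this length. They were common among the members: 28 of the 37 with a promoter in the RefSeq table held at least 1 in any of their 50 windows. That count is per gene and the 32.7% is per window, so they cannot be set side by side. The GC box was chosen after the sequences were seen. Neither window held the letters read by STAT factors, which act below cytokine receptors: the motif TTCNNNGAA occurred in 7.02% of all windows, and the STAT6-type motif, with the same ends and a spacer longer by 1 base, in 5.85%. Both motifs read the same on both strands. Of these 37 members, B4galt1, Mgat2 and Pmm2 held TTCNNNGAA, and Gcnt1 and Mpi held the STAT6-type motif. None of these 5 genes differed by 1.5-fold in its brightest probe set, but another probe set of Pmm2 read 326 against 215 (0.60). A match describes the letters in the window and shows no binding. Most windows lack each motif, and no sequence outside these windows was searched. A role of STAT factors was not tested.

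St3gal4 encodes a sialyltransferase that adds sialic acid in alpha linkage to the galactose at the end of lactosamine chains, as on ligands of selectins. In its single probe set the transgenic array gave an intensity of 911 and the wild-type array one of 62.9. This is a difference of 3.83 on the log2 scale, or 14.3-fold, which ranked 2 from the top among the 11862 genes past the filter. The wild-type intensity lay below the filter, and St3gal4 was the only member that passed it in 1 pool alone. Background signal makes up more of a dim value, so the fold may understate the change.

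The other genes of its class differed far less. St3gal6, whose enzyme also acts on lactosamine ends, read 1556 against 1138 in its brightest probe set, a log2 difference of 0.45. Its next probe sets read 1023 against 547 (0.90), 331 against 299 (0.15) and 92.8 against 59.3 (0.64). All 4 were higher in the transgenic pool, and none reached 2-fold. St3gal3, another enzyme of lactosamine ends, read 158 against 144, and St3gal5, the ganglioside GM3 synthase, read 126 against 123. St3gal1 and St3gal2, which cap the core 1 structure of O-glycans, stayed below the filter. St3gal1 read 49.1 against 73.3, which was the lowest difference of all 52 members at -0.57, while its other probe set lay at 0.01. Of the 6 genes, 4 passed the filter and all 4 lay above 0, against 51.4% of all genes past the filter. St3gal4 passed it only through its transgenic value, so its place above 0 was set by the filter. Without the filter, 4 of the 6 lay above 0, against 51.3% of all genes.

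**Figure D1:**
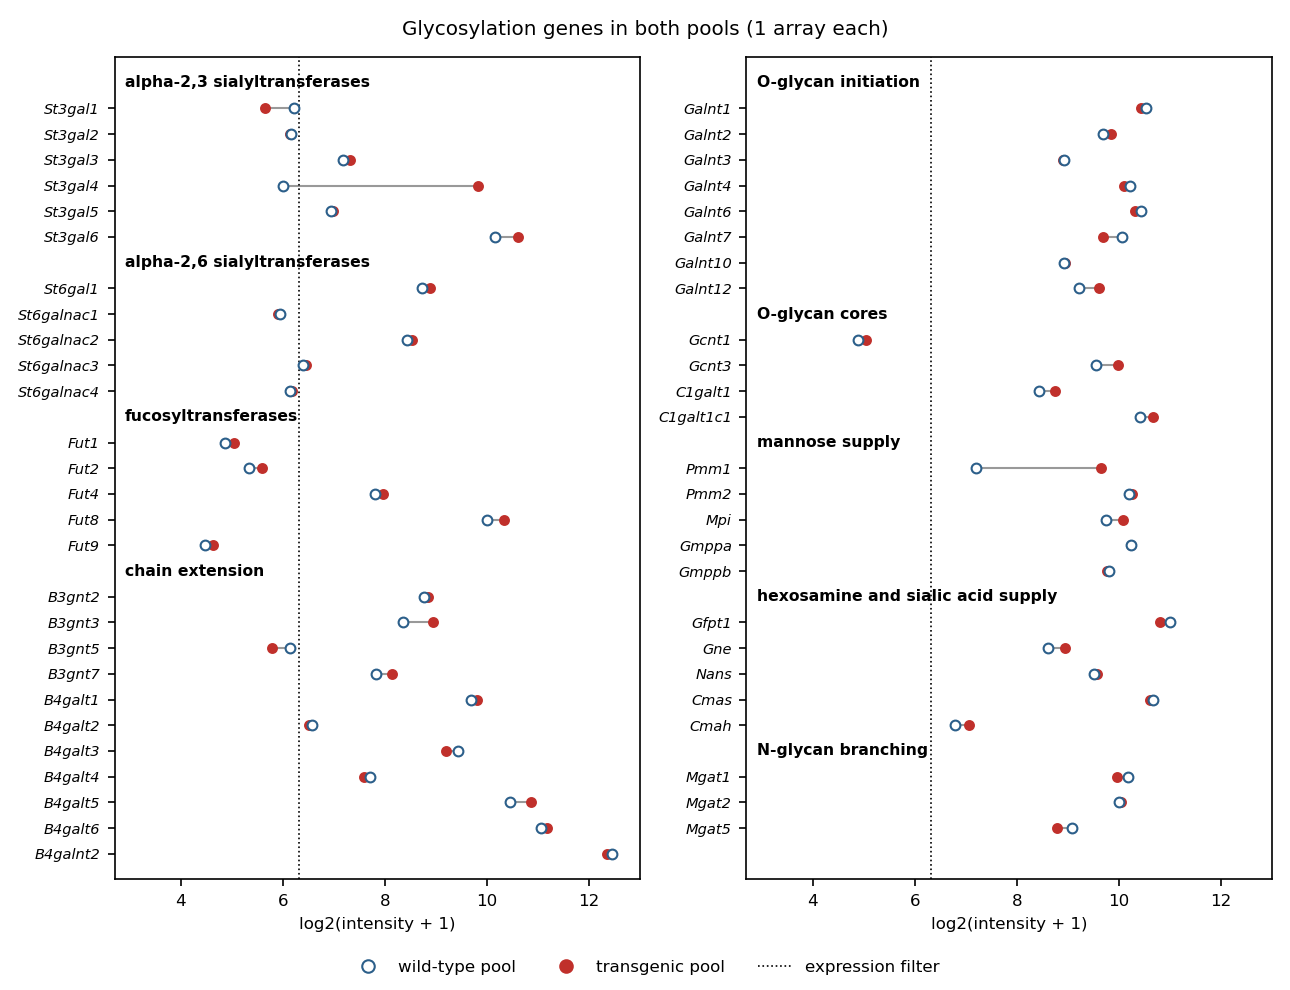
Level of each member in the wild-type pool (open circles) and the transgenic pool (filled circles) as log2(intensity + 1) of its brightest probe set, by enzyme class, with the expression filter as a dotted line. Only St3gal4 and Pmm1 show a wide gap between the circles, and the wild-type value of St3gal4 lies left of the filter.

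The alpha-2,6 sialyltransferases were nearly alike in both pools. St6gal1, which caps N-glycans, read 469 against 424 (0.14), and its other probe set lay at 0.31. St6galnac2, which acts on O-glycans, read 369 against 346, and St6galnac3 read 86.5 against 83.0. St6galnac1, the enzyme that caps the first sugar of mucin chains, read 58.6 against 60.5 and St6galnac4 read 71.8 against 69.7, both below the filter. The 3 members past the filter lay between 0.06 and 0.14. The large difference in a sialyltransferase was thus found in 1 of the 11 sialyltransferase genes among the members.

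Among the fucosyltransferases no member differed by 1.5-fold in its brightest probe set. Fut8, which adds fucose to the core of N-glycans, read 1295 against 1018 (0.35). Its other probe sets past the filter lay at -0.0062 and -0.07, so its probe sets gave no common direction. Fut4, an enzyme of Lewis x type structures, read 248 against 224 (0.15). Fut1, Fut2 and Fut9 were below the filter in both pools. Fut2, the secretor enzyme that adds terminal fucose in the gut epithelium, read 47.0 against 39.5 (0.25) in one probe set and 48.5 against 25.5 (0.90) in the other.

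In the enzymes that lengthen chains, 6 of 10 members past the filter lay above 0, with a median of 0.09. B3gnt3, which extends core 1 chains, had the largest difference in this class and the third largest of all members. It read 488 against 325, a log2 difference of 0.58, in its only probe set. This lies at the 1.5-fold line: the ratio of the intensities is just past it, and the value with the pseudocount of 1 just short of it. B4galt5, a galactosyltransferase that makes lactosylceramide, read 1871 against 1395 (0.42), and B3gnt7, an extender of lactosamine chains, read 281 against 226 (0.31). B4galt3 read 590 against 692, the lowest past the filter in this class at -0.23. B3gnt5, the enzyme that starts the lacto series of glycolipids, read 54.3 against 69.9 and was below the filter. The others, B3gnt2, B4galt1, B4galt2 and B4galt4, lay between -0.12 and 0.13, and a probe set shared by B4galt2 and Ccdc24 read 70.8 against 76.2.

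B4galnt2, which makes the Sda blood group structure of the gut, was read by 3 probe sets past the filter that differed in direction. They read 5232 against 5599 (-0.10), 3059 against 2834 (0.11) and 1556 against 1102 (0.50). B4galt6, the other lactosylceramide synthase, ran from -0.05 to 0.57 over 4 probe sets. No direction is given for either gene.

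The Galnt enzymes that start mucin-type chains showed no common direction. All 8 members passed the filter, 3 lay above 0 and 5 below, and the median was -0.06, beside 0.0083 for all genes past the filter. Galnt12 was the highest at 783 against 598 (0.39), and Galnt7, which adds sugars to peptides that already carry one, the lowest at 824 against 1073 (-0.38). The other probe sets of Galnt7 lay at -0.12 and 0.25. Galnt4 read 1094 against 1191 (-0.12) in its brightest probe set and 323 against 242 (0.41) in the next. The other 5, Galnt1, Galnt2, Galnt3, Galnt6 and Galnt10, lay between -0.12 and 0.14 in their brightest probe sets.

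The genes of the O-glycan cores all lay above 0, by less than 1.5-fold in their brightest probe sets. Gcnt3, the mucin-type core 2 and core 4 branching enzyme, read 1009 against 753 (0.42), 441 against 330 (0.42) and 147 against 80.7 (0.86) in its 3 probe sets. C1galt1, the core 1 synthase, read 430 against 344 (0.32), 324 against 206 (0.65) and 182 against 151 (0.27). These 2 genes thus had every probe set higher in the transgenic pool. C1galt1c1, the chaperone that C1galt1 needs, read 1622 against 1354 (0.26), and its second probe set, below the filter, lay at -0.30. Gcnt1, the other core 2 enzyme, was below the filter at 31.9 against 28.7.

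**Figure D2:**
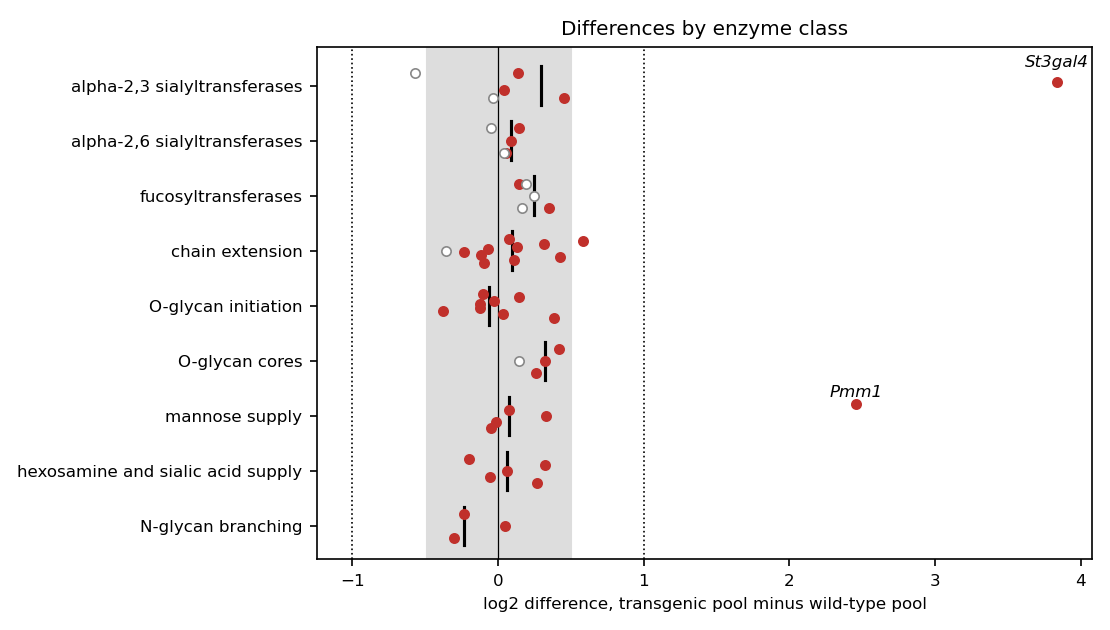
Log2 difference (transgenic pool minus wild-type pool) of each member by enzyme class, with filled points past the expression filter, open points below it and a black bar at the median of the filled points. Grey marks the range of the middle 95% of all genes past the filter and dotted lines mark 2-fold; St3gal4 at 3.83 and Pmm1 at 2.45 lie far outside, and B3gnt3 at 0.58 and St3gal1 at -0.57 lie just outside.

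Pmm1 encodes a phosphomannomutase, which turns mannose 6-phosphate into mannose 1-phosphate on the way to GDP-mannose and GDP-fucose. Its brightest probe set gave 806 on the transgenic and 146 on the wild-type array, which is 5.48-fold or 2.45 on the log2 scale. It ranked 10 from the top among the genes past the filter. Its second probe set read 425 against 77.6 (2.44), so the 2 probe sets differed between pools by nearly the same factor. The probe sets of St3gal4 and Pmm1 are all of the kind that reads several transcripts of a gene (suffix _a_at), so without that kind neither gene has a value and the count past 2-fold is 0.

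The neighbouring steps of the mannose pathway did not show such a difference. Pmm2, the paralog whose deficiency causes the most common congenital disorder of N-glycosylation in humans, read 1229 against 1167 (0.07), with its other probe set past the filter at 326 against 215 (0.60). Mpi, which supplies mannose 6-phosphate, read 1082 against 862 (0.33). Gmppb, which makes GDP-mannose, read 866 against 895, and Gmppa, its regulatory partner, 1199 against 1208.

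Genes for hexosamine and sialic acid supply lay between -0.20 and 0.32. Gne, the enzyme that starts sialic acid synthesis, read 490 against 392 (0.32) and 218 against 159 (0.45), both higher in the transgenic pool. The later steps did not follow it in size: Nans, the sialic acid synthase, read 755 against 725, and Cmas, which activates sialic acid to its CMP form, read 1562 against 1625. Cmah, which converts the activated sugar to the glycolyl form, read 132 against 109 (0.27), and its other probe set past the filter lay at 0.0045. Gfpt1, the first enzyme of the hexosamine pathway, read 1782 against 2049 (-0.20). Of the N-glycan branching enzymes, Mgat1 read 991 against 1165 (-0.23) in its only probe set. Mgat5 read 438 against 539 (-0.30) in one probe set and 483 against 481 (0.0045) in another, and Mgat2 read 1053 against 1018 (0.05) and 282 against 344 (-0.28), so no direction is given for either.

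Over all 52 members without a filter, 33 lay above 0, beside 51.3% of all 18194 genes, and 2 were higher by 2-fold, beside 0.412%. The median was 0.08, against 0.0096 for all genes. Of the 43 past the filter, 28 lay above 0 and the median was 0.08. With the pseudocount of 1, no further member was past 1.5-fold in either direction, and B3gnt3 lay at that line, while 1.68% of all genes past the filter were higher and 1.45% lower by that size. Of all genes past the filter, 95% lay between -0.49 and 0.50, and of the members past it only St3gal4, Pmm1 and B3gnt3 lay outside that range.

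The probe sets of 1 gene are the only repeat readings in this design, and they share the array and the RNA. Over the 23 members with several probe sets past the filter, their differences had an SD of 0.23 around the gene's mean, as over the 4965 such genes on the array. In 10 of the 23 all probe sets lay above 0, in 0 all lay below, and in 13 they were mixed. Of the 4965 genes, 44.1% had all of theirs in one direction, above or below 0, so 10 of 23 is near that share. The share of the 4965 with all above 0 is not given here. The 10 were St3gal6, St6gal1, B3gnt2, Galnt10, Gcnt3, C1galt1, Pmm1, Pmm2, Gne and Cmah. All of these but Pmm1 differed by less than 0.50 in their brightest probe set.

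**Figure D3:**
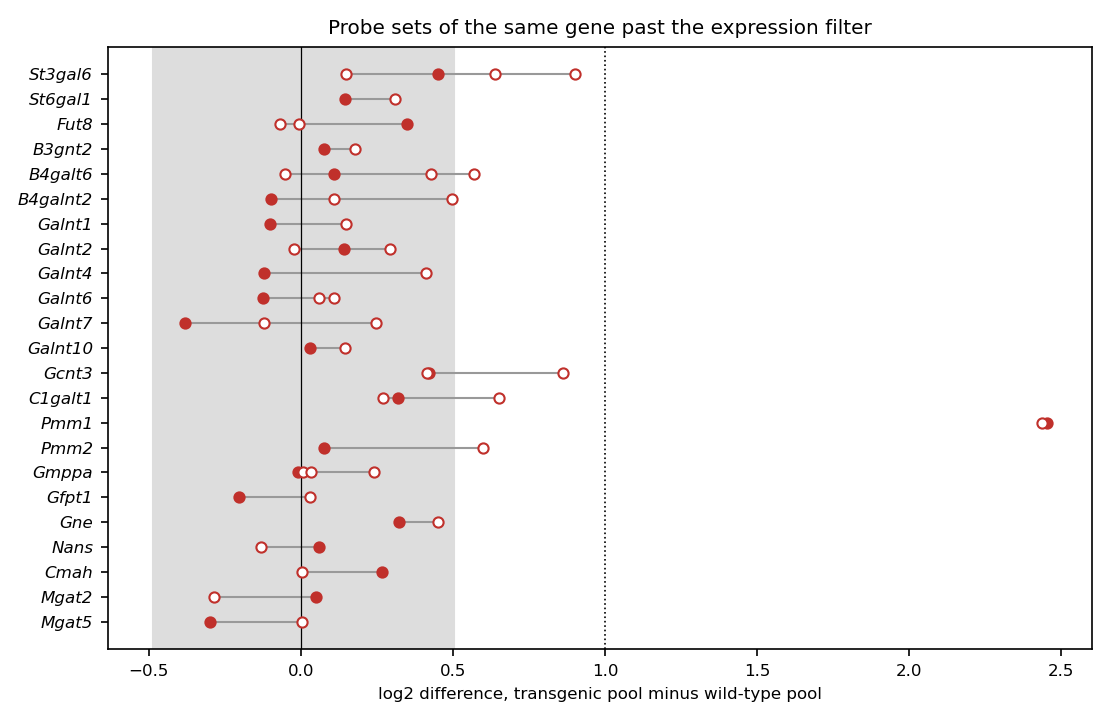
Log2 difference (transgenic pool minus wild-type pool) of every probe set past the expression filter, for the 23 members with several, with the brightest probe set filled and the others open. Grey marks the middle 95% of all genes past the filter; the 2 probe sets of Pmm1 coincide near 2.44, whereas those of Galnt7 and Galnt4 lie on both sides of 0.

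Dimmer probe sets of a member tended to read higher in the transgenic pool than its brightest one. Of 36 further probe sets past the filter in these 23 genes, 25 had a larger difference than the brightest, or 69.4%, against 57.8% over all genes. In all, 57 of the 79 member probe sets past the filter lay above 0, or 72.2%, against 52.5% of all such probe sets. The probe sets at the ends of control transcripts moved too: the ratio of 3′ to 5′ signal was 1.33 in the transgenic and 1.61 in the wild-type pool for actin, and 1.08 and 1.22 for Gapdh. It ran the other way for pyruvate carboxylase, at 3.87 and 3.60, and for the transferrin receptor, at 4.70 and 3.68. The part of RNA integrity in these probe set differences was not tested.

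Of 137 further glycosylation genes in 11 lists, 123 were named on the array and 98 passed the filter. Of these 98, 47 lay above 0, and the median was -0.0018. Mgat4c, a relative of the enzymes that branch N-glycans, was the only one past 2-fold. This is 1 of 98, near the 0.607% of all genes past the filter that were higher by that size. Its single probe set gave 192 on the transgenic and 45.6 on the wild-type array, 4.13-fold higher, with the wild-type value below the filter. Its relatives Mgat4a and Mgat4b read 2307 against 2672 (-0.21) and 1069 against 1095 (-0.03). As with St3gal4 and Pmm1, the difference lay in a single gene of its family.

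Muc3, a membrane mucin of the brush border, read 6670 against 3776 (0.82), the highest of the mucin genes that carry these chains. Muc13, another membrane mucin, read 7006 against 9132 (-0.38), and its other probe set lay at -0.68. Muc2, the secreted mucin of goblet cells, read 11343 against 10628 (0.09). The mucin carriers thus did not share a direction.

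Among the nucleotide sugar transporters, which carry donors into the Golgi, 3 of 10 lay above 0. Slc35a2, the carrier of UDP-galactose, was the lowest at 520 against 834 (-0.68), but its 5 probe sets past the filter reached up to 0.25. Slc35a3, a carrier of UDP-N-acetylglucosamine, was the highest at 1832 against 1644 (0.16), and Slc35a1, the carrier of CMP-sialic acid, read 274 against 276. In fucose supply, Gmds, the first enzyme from GDP-mannose to GDP-fucose, read 1406 against 1016 (0.47), with its other probe set at 0.02, and Fpgt, of the salvage route, was the lowest at -0.21.

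Besides Mgat4c, the remaining lists held 1 gene past 1.5-fold. This was Alg2, a mannosyltransferase of the N-glycan precursor, at 342 against 515 (-0.59), with Dpm1 the highest of that list at 0.23. For hexosamine supply the extremes were Gnpnat1 at 0.45 and Uap1l1 at -0.37, and for galactose and glucose supply Pgm1 at 0.33 and Hk2 at -0.01. Of the enzymes that remove or modify terminal sugars, 2 of 7 lay above 0, from -0.45 in Fuca2, a fucosidase, to 0.09 in Siae. The sialidase Neu1 read 374 against 366. Among other sialyltransferases, St6galnac6 was the highest at 0.25 and St6galnac5 the lowest at -0.42. The other lists ran from Pofut2 at -0.29 to Fut11 at 0.08 for fucosyltransferases, from Galnt15 at 0.02 to Galnt5 at 0.38 for Galnt enzymes, and down to B4galt7 at -0.33 for chain and branch enzymes.

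**Figure D4:**
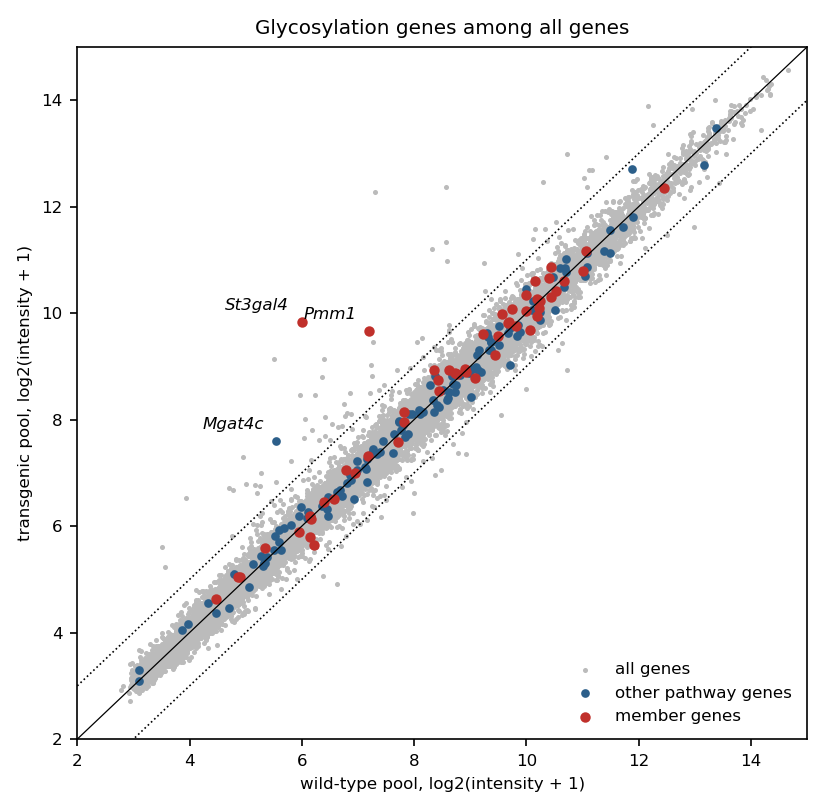
Level of each gene in the wild-type pool (horizontal) against the transgenic pool (vertical), both as log2(intensity + 1) of the brightest probe set, for all 18194 genes (grey), the 52 members (red) and the other pathway genes (blue). Dotted lines mark 2-fold; St3gal4, Pmm1 and Mgat4c lie above the upper line and the other glycosylation genes lie between the lines.

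The genes next to St3gal4 and Pmm1 on their chromosomes did not show differences of that size. The nearest 3 protein-coding genes with a probe set on each side gave 12 neighbours, of which 11 passed the filter and 0 differed by 1.5-fold. Of all genes past the filter, 1.68% were higher and 1.45% lower by that size. A count of 0 among 12 genes is therefore no particular trait of these neighbours. Next to St3gal4, Dcps, a decapping enzyme of mRNA turnover, read 202 against 135 (0.58), the largest difference among the 12, and Kirrel3 on the other side read 47.2 against 54.8. Next to Pmm1, Csdc2 read 280 against 275, and Desi1, the third gene on one side, read 689 against 505 (0.45). The neighbours were read from the RefSeq gene order of GRCm38.p6.

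Marker genes of several cell types differed between the pools, and in such bulk RNA more cells of a type and more RNA per cell cannot be told apart. Epithelial markers were similar, with 3 of 8 above 0 and a summed intensity of 62464 in the transgenic and 64727 in the wild-type pool, and Epcam and Vil1, markers of gut epithelium, read 9554 against 10294 and 8950 against 9653. Tuft cell markers were above 0 in 8 of 8, with sums of 2081 and 695. Of these, 5 were higher by 2-fold, among them Rgs13, Avil and Dclk1, against 0.607% of all genes past the filter. The wild-type values of Rgs13, Avil, Dclk1, Sh2d6 and Il17rb lay below the filter. Mast cell markers were above 0 in 7 of 8 (sums of 5821 and 1241). Mcpt1, at 2586 against 378, and Mcpt2, at 2364 against 319, made up much of these sums. Hdc lay below 0 at -0.19. The wild-type values of Cpa3 and Fcer1a lay below the filter, as did both values of Ms4a2. Goblet cell markers were above 0 in 5 of 8 (76582 and 71438), Paneth cell markers in 4 of 5 (53074 and 39436) and plasma cell markers in 5 of 6 (17936 and 16350). Of the goblet cell markers, 4 were higher by 1.5-fold (Clca1, Atoh1, Spdef and Agr2), against 1.68% of all genes past the filter. Muc2, Tff3, Zg16 and Fcgbp, which lay between -0.22 and 0.09, made up much of the goblet sums. Among Paneth cell markers, Ang4 read 15190 against 4590 and Mptx1 6632 against 2293, while Lyz1 read 17539 against 20805. B cell markers were above 0 in 0 of 7 (850 and 1531), absorptive enterocyte markers in 2 of 7 (115758 and 122096), smooth muscle markers in 4 of 6 (20430 and 19495) and exocrine pancreas markers in 5 of 9 (9432 and 2579). The pancreas sums rest on the lipase-related Pnliprp1 and Pnliprp2, and the other 7 markers summed to 806 and 816. No marker was at 0, since the lowest intensity was 5.60 on the transgenic and 5.75 on the wild-type array. The part of these cell types in the differences of St3gal4, Pmm1 and Mgat4c was not tested. The single probe set of Il9 read 62.2 against 71.6, below the filter in both pools, and does not check the labels, because the part of the gene in the transgene is not given in the sources used here.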

How the data were processed

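Affymetrix mouse arrays were hybridised with biotin-labelled cRNA made from 10 µg of total RNA, 1 array per pool of 3 mice. The authors' deposited values are intensities per probe set on a linear scale, made with RMA per the submitters' processing notes, with no version. RMA equalises the distributions of the arrays, so a shift shared by most genes cannot be seen, and there are no detection calls. The number of arrays limits the precision. GEO's platform annotation gave 1 symbol to 34958 of 45101 probe sets, several to 932 and none to 9211, and all 52 members matched RefSeq (GRCm38.p6) by Entrez identifier. The brightest probe set stood for each gene, the others served as a check. Differences were taken as log2(intensity + 1), and the expression filter was the median of all values (6.31). No test was made. Samples were grouped by their labelled source. Members, lists, filter and fold were chosen with earlier results of these data known. Named were all members, with the extremes of each further list and its genes past 2-fold. The GC box, the choice to show upstream bases only, the neighbours, Muc2, Slc35a1, Neu1, Mgat4a and Mgat4b were chosen after the values or sequences were seen. The alternatives were other choices of probe set, pseudocount, normalization, filter and fold. The procedure was tested on simulated data with large changes in bright genes only. That test does not cover changes in dim genes or small changes. Python 3.11.15, pandas 2.3.3 and numpy 2.4.6 were used.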

Additional observations from a re-analysis of the deposited data

How the results depend on the processing

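St3gal4 and Pmm1 were the 2 members higher by the fold in use, and 0 were lower by it, in 11 of the 12 alternatives. The fold in use was 2, except in the alternatives with folds of 1.5 and 3. The 11 included the mean over probe sets, both normalizations, both pseudocounts, both filters, both other folds and the second-brightest probe set. All alternatives reuse the same 2 arrays, and differences as large as these leave most of them little room to change the count. St3gal4 has 1 probe set, so the choices of a mean or a second probe set could not change its value. Without probe sets ending in _x_at, _s_at and _a_at the count was 0, because all probe sets of these 2 genes end in _a_at and drop out. Leaving out only _x_at and _s_at, an alternative added after the data were seen like the second-brightest probe set, kept both. St3gal4 ran from 3.31 (pseudocount 32) to 3.86 and Pmm1 from 2.23 to 2.46. The median of the members past the filter ran from 0.06 to 0.13. The direction of small differences depends on the probe set. Of the 41 members with several probe sets, 20 changed sign with the second-brightest one and 11 with the mean over probe sets. Under the other 8 alternatives that gave values per gene, 0 did. Both choices also used probe sets below the filter, so some of these changes come from dim readings, as for B4galt3 at 10.3 against 9.39. No paired analysis was possible because there is 1 array per group and the labels give no replicate number. Probe sets near background give compressed folds, and with single pools the spread between mice is unknown.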
